A study of Mus musculus with 6 samples.

Results

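The genes described here encode organic anion uptake transporters of the Slco and Slc22 families, measured in livers of fasted mice with and without Cpt2 in hepatocytes. They were taken from a list of 9 gene symbols, and the array row that named 1 of these genes alone stood for it. Where several rows did, the row with the highest mean over the 6 arrays was used. Of the 9 genes, 7 had such a row, among 20242 genes measured this way: Slco1a1, Slco1a4, Slco1b2, Slco2a1, Slco2b1, Slc22a7 and Slc22a30. Slc22a27 and Slc22a28 were named only in rows shared with neighbouring genes and are described through those rows. The genes on the list were chosen by their known roles and with their Cpt2KO-to-WT differences on these same arrays in view, so the number that changed is a description and no independent evidence. The adjusted p given for each gene comes from 1 fit over all genes.

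The Cpt2KO group held 3 male C57BL/6 mice of genotype Albumin-Cre;Cpt2f/f, and the WT group 3 male C57BL/6 mice of genotype Cpt2f/f without the Cre. Both groups carried the floxed alleles, and every mouse had been fasted for 24 hours before the liver was taken. The albumin promoter drives the Cre in hepatocytes, so other liver cells keep an intact gene. Listed ages were 12, 13 and 14 weeks in Cpt2KO mice and 9, 10 and 11 weeks in WT mice, while the growth protocol gives 9 weeks for all, so a difference of genotype and one of listed age cannot be fully told apart. Each mouse gave 1 array, whose log2 values are RMA summaries. The number of arrays, 3 per group, limits the precision.

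Hepatocytes take up bile acids, bilirubin, steroid conjugates, thyroid hormones and drugs from portal blood across their sinusoidal membrane. Sodium-independent uptake runs largely through organic anion transporting polypeptides, which the Slco genes encode. The Slc22 family holds organic anion, organic cation and carnitine transporters. The listed Slc22 genes belong to its anion transporter branch, and the classical organic cation transporters of the family are not among them.

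Cpt2 encodes the carnitine palmitoyltransferase of the inner mitochondrial membrane. It had log2 values of 6.48, 6.73 and 6.75 in Cpt2KO livers, against 7.56, 7.72 and 7.63 in WT livers. Its groups did not overlap (log2 fold change -0.99, SE 0.11, adjusted p = 0.0013 by limma). The call was lost with every row tested (adjusted p = 0.0692) and with listed age (0.0753). The labels do not name the deleted exons, so whether this row covers them is not known here. Arrays correlated across all genes at r = 0.985 to 0.987 within Cpt2KO, 0.988 to 0.989 within WT and 0.969 to 0.977 between the genotypes.

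Expression of uptake transporters was lower in Cpt2KO livers. By limma, 6 of the 7 measured genes fell and Slco2b1 did not pass the threshold of adjusted p 0.05. Over all 20242 genes, 3.49% were called lower and 4.74% higher by the same test, 8.24% in either direction. In 4 of the 7, Slc22a30, Slco1a4, Slco1a1 and Slco1b2, the decrease was at least 2-fold, against 0.978% of all genes. The 7 log2 fold changes ran from -3.61 to -0.07 with a median of -1.02, beside a median of -0.01 over all genes. In 6 of the 7 every Cpt2KO array lay below every WT array, as in 11.1% of all genes.

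**Figure D1:**
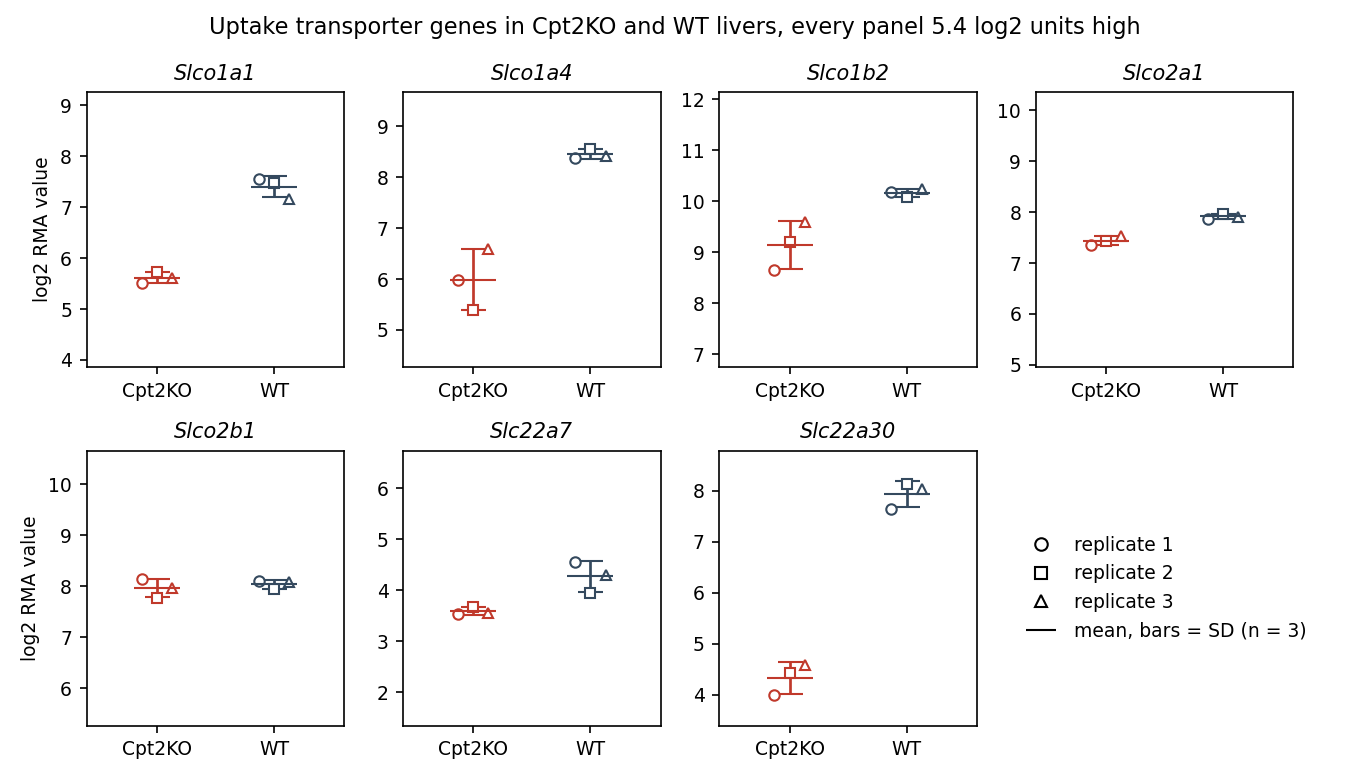
Log2 RMA value of each uptake transporter gene in the 3 Cpt2KO arrays (left, red) and the 3 WT arrays (right, dark), with a line at the mean and bars of 1 SD; symbols give the replicate number and each panel spans the same height. The groups overlap for Slco2b1 alone, and the gap is widest for Slc22a30, with means of 4.33 in Cpt2KO and 7.94 in WT livers.

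Slco1a1 encodes Oatp1a1, a carrier of bile salts and steroid conjugates that is higher in male than in female mouse liver. Its log2 values were 5.51, 5.72 and 5.62 in Cpt2KO livers, against 7.56, 7.47 and 7.16 in WT livers. The Cpt2KO values lay close together and well below each WT value. The mean was 5.62 ± 0.10 in Cpt2KO and 7.40 ± 0.21 in WT livers (SD, n = 3 each), a 3.43-fold decrease (log2 fold change -1.78, SE 0.13, adjusted p = 0.000181 by limma). With listed age as a covariate it did not pass (adjusted p = 0.0661).

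Slco1a4 encodes Oatp1a4, which carries bile salts and cardiac glycosides and is a known target of the pregnane X receptor. It had log2 values of 5.98, 5.39 and 6.58 in Cpt2KO livers, against 8.38, 8.56 and 8.42 in WT livers. The Cpt2KO livers differed among themselves by more than a log2 unit, with an SD of 0.60 against 0.09 in WT livers, yet all were below the WT range. The decrease was 5.54-fold (log2 fold change -2.47, SE 0.26, adjusted p = 0.00101 by limma). It did not pass with unmoderated statistics (adjusted p = 0.0553) or with listed age (0.0774).

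Slco1b2 encodes Oatp1b2, the rodent counterpart of the human liver OATP1B carriers, which takes up bilirubin glucuronides, bile acids and the toxins phalloidin and microcystin. Its log2 values were 8.64, 9.21 and 9.58 in Cpt2KO livers, against 10.18, 10.09 and 10.24 in WT livers. Each Cpt2KO value was lower than each WT value, by a margin that differed from liver to liver. The mean of 9.15 ± 0.47 in Cpt2KO and 10.17 ± 0.08 in WT livers (SD, n = 3 each) gave a 2.03-fold decrease (log2 fold change -1.02, SE 0.21, adjusted p = 0.0215 by limma). The call was lost without Cpt2KO replicate 2 (adjusted p = 0.0588) or WT replicate 1 (0.0625), 2 (0.0581) or 3 (0.0718), after quantile normalization (0.0974), with unmoderated statistics (0.173) and with listed age (0.0977).

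Slco2a1 encodes the prostaglandin transporter, which also lies in vascular endothelium. Its log2 values were 7.35, 7.43 and 7.54 in Cpt2KO livers, against 7.87, 7.97 and 7.91 in WT livers. Groups did not overlap, and the step was small, a 1.39-fold decrease (log2 fold change -0.47, SE 0.10, adjusted p = 0.019 by limma). The call was lost without Cpt2KO replicate 1 (adjusted p = 0.0725) or 2 (0.058) and without WT replicate 1 (0.0524), 2 (0.0785) or 3 (0.0711). It was also lost after quantile normalization (0.129), after centring arrays on their medians (0.0524), with every row tested (0.326) and with listed age (0.311).

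Slco2b1 encodes Oatp2b1, a carrier of steroid sulfates that is expressed in many tissues. It had log2 values of 8.15, 7.78 and 7.98 in Cpt2KO livers, against 8.10, 7.94 and 8.09 in WT livers. The ranges overlapped, with means of 7.97 ± 0.19 in Cpt2KO and 8.04 ± 0.09 in WT livers (SD, n = 3 each). The difference of -0.07 (SE 0.12) did not pass (adjusted p = 0.846 by limma), nor in any of the 17 alternative settings.

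Slc22a7 encodes Oat2, an organic anion transporter. It had log2 values of 3.53, 3.68 and 3.55 in Cpt2KO livers, against 4.56, 3.95 and 4.31 in WT livers. WT replicate 2 lay nearest to the Cpt2KO livers, and the groups did not overlap. The decrease was 1.61-fold (log2 fold change -0.68, SE 0.15, adjusted p = 0.0297 by limma). The call was lost in 11 of 16 alternatives. Among them were the fits without Cpt2KO replicate 1 (adjusted p = 0.0877), 2 (0.0636) or 3 (0.0922) and without WT replicate 1 (0.076) or 3 (0.0927). The mean of its 2 rows gave an adjusted p of 0.238. Its values are low, a range in which RMA compresses differences.

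Slc22a30 lies in a block of related Slc22 genes, and its substrates are not described here. Its log2 values were 3.99, 4.43 and 4.59 in Cpt2KO livers, against 7.65, 8.14 and 8.03 in WT livers. All Cpt2KO arrays were more than 3 log2 units below every WT array. The signal in Cpt2KO livers was 8.21% of that in WT livers (log2 fold change -3.61, SE 0.18, adjusted p = 4.92e-05 by limma). It passed in all 17 alternatives, with adjusted p from 1.46e-05 to 0.0178.

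Most members with several rows showed a like difference in each. The rows not used were dimmer, with means over the 6 arrays of 3.22 and 3.17 for Slco1a4, 3.39 for Slco2a1, 3.41 for Slco2b1 and 1.81 for Slc22a7. The other Slco1a4 rows had log2 fold changes of -2.35 (SE 0.18) and -2.56 (SE 0.44), beside -2.47 in the row used. The adjusted p over all 115050 rows by limma was 0.0119 and 0.104 for them and 0.0383 for the row used. The other Slco2a1 row differed by -0.79 (adjusted p = 0.232 over all rows). The second Slco2b1 row differed by -0.05, with values of 3.58, 3.32 and 3.24 in Cpt2KO and 3.35, 3.28 and 3.67 in WT livers. In the second Slc22a7 row, 1 WT array decided the difference. Its values were 1.41, 1.54 and 1.50 in Cpt2KO livers, against 3.43, 1.48 and 1.51 in WT livers.

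The rows shared by relatives of Slc22a30 bear on Slc22a27 and Slc22a28, which had none of their own. The row naming Slc22a30 and Slc22a28 together had values of 3.78, 3.81 and 3.88 in Cpt2KO livers, against 6.26, 6.05 and 6.44 in WT livers. It was 5.38-fold lower (log2 fold change -2.43, SE 0.15, adjusted p = 0.00747 over all rows by limma). One row naming Slc22a27 and Slc22a29 had 3.14, 3.14 and 3.56 in Cpt2KO livers, against 5.63, 5.17 and 5.35 in WT livers, a 4.30-fold decrease (adjusted p = 0.0195). A dimmer row of the same pair had 2.26, 2.14 and 2.35 in Cpt2KO livers, against 3.48, 3.35 and 3.59 in WT livers (log2 fold change -1.22, adjusted p = 0.0365). Another row of this pair overlapped between the groups, with 4.18, 4.05 and 4.31 in Cpt2KO and 4.73, 4.08 and 4.02 in WT livers (-0.10, adjusted p = 0.957). The row naming Slc22a27, Slc22a29 and Slc22a30 differed by -0.46 (adjusted p = 0.463). Which of the named genes gave the signal in a shared row was not tested.

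**Figure D2:**
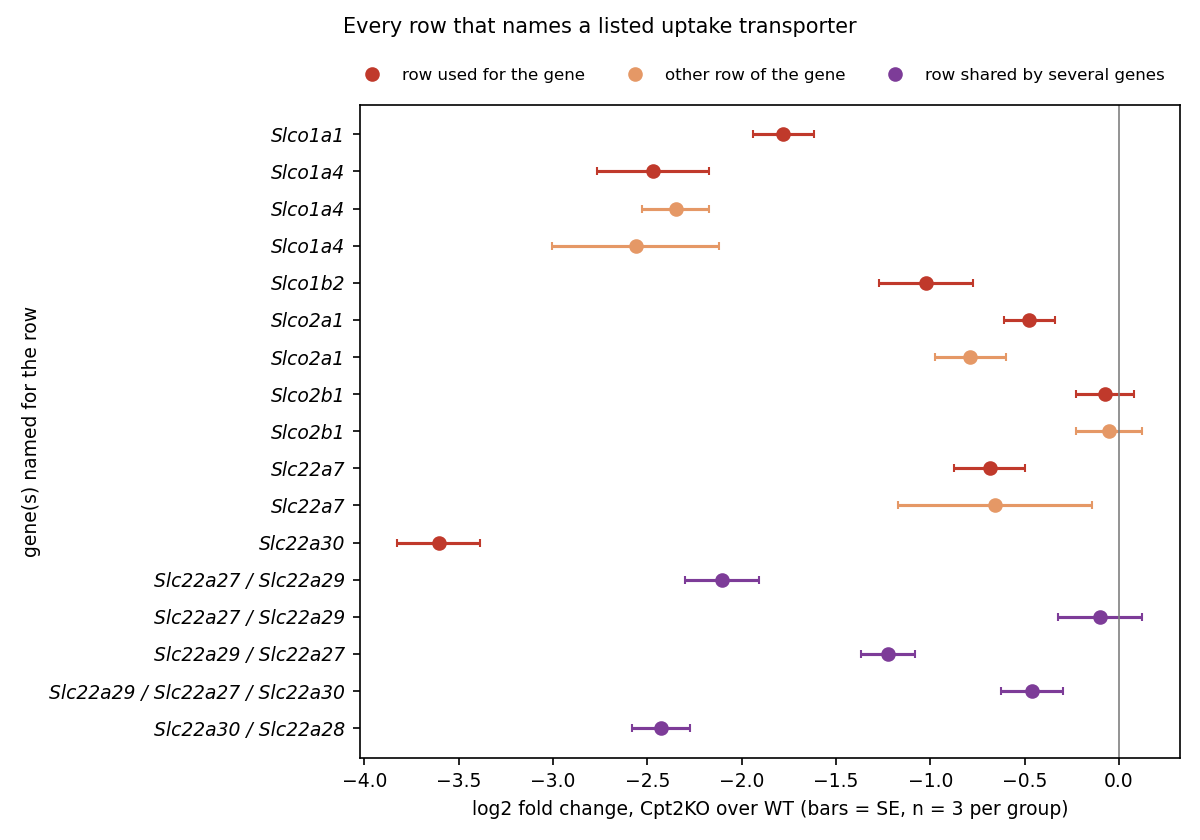
Log2 fold change of Cpt2KO over WT for each of the 17 array rows that name a listed transporter, with bars of 1 SE from the fit over all rows; red points are the rows used, orange points other rows of the same gene and purple points rows shared by several genes. The 3 Slco1a4 rows lie between -2.56 and -2.35, and rows naming Slc22a27 with Slc22a29 range from -2.10 to -0.10.

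Slc22a30 and Slc22a28 share a row, and their start-site windows are shown side by side for how alike they are. Both are from RefSeq, build GRCm38.p6, minus strand, 250 bases before to 50 bases after the annotated start, at chr19:8405056-8405355 for Slc22a30 and chr19:8131933-8132232 for Slc22a28. The array annotation names the older build mm9, and no position was converted between the builds. Capitals mark the aligned bases at which the pair differs.
Slc22a30: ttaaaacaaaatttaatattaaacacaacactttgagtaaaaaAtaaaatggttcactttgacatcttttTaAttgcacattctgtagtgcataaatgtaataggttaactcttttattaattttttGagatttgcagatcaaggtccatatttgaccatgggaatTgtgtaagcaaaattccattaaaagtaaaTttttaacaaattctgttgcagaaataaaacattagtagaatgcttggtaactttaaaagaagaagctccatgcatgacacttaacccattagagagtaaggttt
Slc22a28: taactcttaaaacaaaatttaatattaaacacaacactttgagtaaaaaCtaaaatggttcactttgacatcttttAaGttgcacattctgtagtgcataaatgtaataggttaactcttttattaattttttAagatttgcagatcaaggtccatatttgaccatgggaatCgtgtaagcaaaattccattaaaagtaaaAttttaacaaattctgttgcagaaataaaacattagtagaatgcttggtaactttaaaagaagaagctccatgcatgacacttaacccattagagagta
Of 294 aligned bases, 288 were identical and 6 differed. Windows were found for 8 of the 9 listed genes, and this pair stood first among their 28 pairs, with 96% of the 300 bases identical. Unaligned ends cost nothing in this alignment. In the next pair (15%) only 67 bases were aligned, 45 of them identical, so the percentages of the other pairs do not measure their likeness. The windows lie around the start site and hold no measure of how alike the probed exons are. Whether RNA of Slc22a28 adds to the row that names Slc22a30 alone was not tested.

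Most listed genes lie in 2 blocks of related transporter genes. On chromosome 6 the protein-coding genes run, in RefSeq order, from Slco1c1 through Slco1b2, Gm5724, Slco1a4, Slco1a1, Gm6614 and Slco1a6 to Slco1a5. Beside the 3 listed genes of this block, Slco1a5 fell, with 3.12, 3.13 and 3.04 in Cpt2KO livers against 3.72, 3.76 and 3.63 in WT livers (log2 fold change -0.61, adjusted p = 0.00538 by limma). Slco1a5 encodes Oatp1a5, a bile acid carrier, and did not pass with every row tested (adjusted p = 0.185) or with listed age (0.526). Gm6614 fell too (-0.51, adjusted p = 0.0209), but not without Cpt2KO replicate 1 (0.0589) or 2 (0.0665) or WT replicate 2 (0.0846) or 3 (0.0675). Slco1a6 was lower in every Cpt2KO array without passing (-0.34, adjusted p = 0.107), and Gm5724 (-0.16, adjusted p = 0.52) and Slco1c1, a thyroid hormone carrier of the brain (-0.07, adjusted p = 0.79), did not pass. The genes on either side, Pde3a (-0.44, adjusted p = 0.269) and Iapp (0.08, adjusted p = 0.843), did not pass. Rows of Slco1c1, Gm5724, Slco1a6, Slco1a5 and Gm6614 had mean values under 4 in both groups, and close relatives in this block may also share probes.

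In the chromosome 19 block the order is Slc22a19, Slc22a26, Slc22a27, Slc22a28, Slc22a29, Slc22a30, Slc22a8 and Slc22a6. Slc22a30 was the only gene called among the 4 of these with a row of their own. Slc22a19 differed by -0.09 (adjusted p = 0.702 by limma), Slc22a8 by -0.05 (0.917) and Slc22a6 by 0.04 (0.897). Slc22a6 and Slc22a8 encode the main organic anion transporters of the kidney tubule, and their values were 3.57 and 3.15 in Cpt2KO and 3.53 and 3.21 in WT livers. Slc22a26 was not analysed here.

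**Figure D3:**
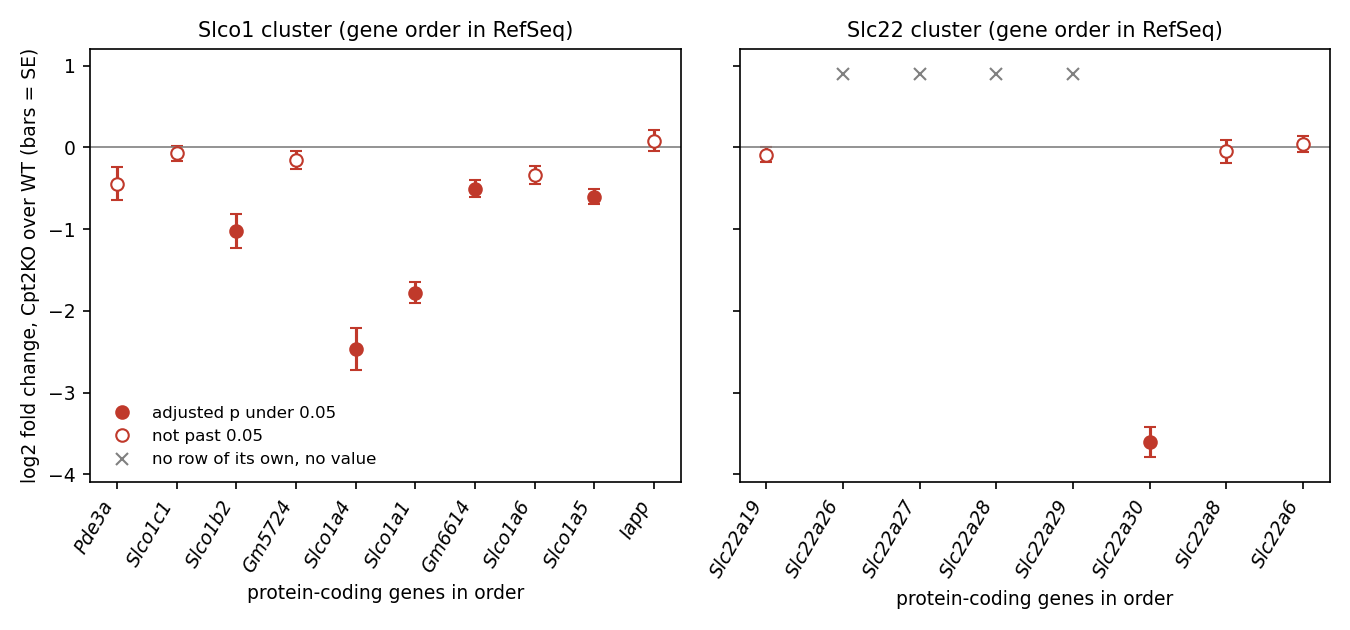
Log2 fold change of Cpt2KO over WT for protein-coding genes in their RefSeq order in the Slco1 block (left) and the Slc22 block (right), with bars of 1 SE; filled points passed adjusted p 0.05 and crosses mark genes with no row of their own. In the Slco1 block the largest decrease is that of Slco1a4 at -2.47. In the Slc22 block Slc22a30 is at -3.61, and Slc22a19, Slc22a8 and Slc22a6 lie near 0. Slc22a27, Slc22a28 and Slc22a29, which come just before Slc22a30 in this order, have no value here. The shared rows that name them, not drawn here, have log2 fold changes from -2.43 to -0.10.

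Start-site windows of 2 members of the chromosome 6 block are shown for the letters they hold, since the genes fell together. The motifs searched on both strands were GTTAAT, part of the site of the hepatocyte factor HNF1, AGGTCA, part of nuclear receptor sites, TTCNNNGAA for STAT5 and TTGCNNAA for C/EBP. Capitals mark every match, at chr6:141946913-141947212 (minus strand) for Slco1a1 and chr6:141629268-141629567 (plus strand) for Slco1b2, RefSeq build GRCm38.p6.
Slco1a1: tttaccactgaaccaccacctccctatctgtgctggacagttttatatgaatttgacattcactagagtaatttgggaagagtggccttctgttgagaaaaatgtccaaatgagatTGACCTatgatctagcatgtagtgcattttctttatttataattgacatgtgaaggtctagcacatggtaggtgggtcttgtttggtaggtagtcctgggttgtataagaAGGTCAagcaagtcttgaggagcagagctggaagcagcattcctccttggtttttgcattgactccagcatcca
Slco1b2: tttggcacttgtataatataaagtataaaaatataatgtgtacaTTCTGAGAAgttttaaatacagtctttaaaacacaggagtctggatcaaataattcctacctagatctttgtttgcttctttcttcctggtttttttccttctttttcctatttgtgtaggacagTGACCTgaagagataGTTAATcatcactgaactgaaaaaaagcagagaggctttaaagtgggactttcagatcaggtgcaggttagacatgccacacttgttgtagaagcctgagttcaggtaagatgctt
The Slco1a1 window held AGGTCA once in each orientation. The Slco1b2 window held GTTAAT at -66 from the start, AGGTCA on the other strand at -81 and TTCNNNGAA at -206. Among all 32851 windows of this length, 7.1% held GTTAAT, 16.3% AGGTCA and 8.3% TTCNNNGAA. TTGCNNAA, present in 10.8% of windows, was found in those of Slc22a28 at -33 and Slc22a30 at -39. TTCNNNGAA was also found in 2 of the 3 windows of Slco2b1, at -133 and 14, and AGGTCA in that of Slc22a27 at -119. The Slco1a4 and Slco2a1 windows held none of these letters. A match is a description of the sequence and no evidence of binding.

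Other members of both families were read in the same fit, in which 8.24% of all genes were called in either direction. Of 10 other Slco genes measured, Slco1a5 fell and 9 did not pass; the median of the 10 was -0.06 on the log2 scale. Of 17 other Slc22 genes, 1 rose and 16 did not pass, with a median of -0.03. The riser was Slc22a5, which encodes the carnitine transporter Octn2, with 7.14, 7.47 and 7.57 in Cpt2KO livers, against 6.29, 6.58 and 6.27 in WT livers. All its Cpt2KO values lay above the WT range (2.02-fold, log2 fold change 1.01, adjusted p = 0.00388 by limma). It did not pass with every row tested (adjusted p = 0.109), with unmoderated statistics (0.0698) or with listed age (0.508).

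A further list held 15 measured solute carriers and partners, not all of which bring solutes into hepatocytes. Of the 15, 6 fell, 1 rose and 8 did not pass, against 3.49% of all genes called lower and 4.74% higher. The median was -0.25, beside -0.29 in the hepatocyte markers and -0.01 over all genes. The largest decreases were those of the organic anion and phosphate carriers Slc17a2 (log2 fold change -1.40, adjusted p = 0.00243 by limma) and Slc17a3 (-1.33, 0.00141), the glutamate carrier Slc17a8 (-1.11, 0.000762) and the nucleoside carrier Slc29a1 (-0.93, 0.00309). Slc10a1, the sodium-dependent bile acid carrier Ntcp, came next and is named after its values were seen. It had 10.58, 10.39 and 10.53 in Cpt2KO livers, against 11.35, 11.25 and 11.36 in WT livers. Its groups were well apart (1.77-fold lower, adjusted p = 0.00176). With every row tested (adjusted p = 0.0942) or with listed age (0.25) Slc10a1 did not pass. Its decrease on the log2 scale, -0.82, lay between those of Slco1b2 and Slc22a7. The nucleoside carrier Slc29a2 rose (0.55, adjusted p = 0.0131), though not without WT replicate 1 (0.0541). Pdzk1, a scaffold that holds Oatp1a1 at the membrane, had 5.09 in both groups (adjusted p = 0.995).

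Among transporters that lead out of the hepatocyte, the bile salt export pump fell. Of 14 efflux transporters, 1 fell and 13 did not pass, with a median of -0.13, against 3.49% of all genes called lower. The pump, Abcb11, had 6.21, 6.26 and 6.36 in Cpt2KO livers, against 8.51, 8.58 and 8.78 in WT livers. It was 5.08-fold lower with no overlap (adjusted p = 3e-05 by limma). The count of decreases was 2 without Cpt2KO replicate 3, with genes above the 25th percentile of level and with the mean of a gene's rows. It was also 2 with a trended robust prior, with array weights and with the replicate block, and 3 among genes above the median level. Abcg5 lay near the threshold without overlap (-0.70, adjusted p = 0.0521 by limma). Abcc2, the canalicular pump of bilirubin glucuronides, had 10.34 in Cpt2KO and 10.28 in WT livers (adjusted p = 0.911), and the sinusoidal export pump Abcc3 had 9.57 in Cpt2KO and 9.32 in WT livers (adjusted p = 0.38).

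Nuclear receptors and liver factors known to act on transporter genes were lower in part. Of 23 measured, 6 fell and 17 did not pass, with a median of -0.41, against 3.49% of all genes called lower. The 4 largest decreases were those of Nr0b2, a bile acid-induced repressor (log2 fold change -1.90, adjusted p = 0.00253 by limma), the hepatocyte factor Onecut1 (-1.34, 0.00975), the dioxin receptor Ahr (-1.01, 0.00234) and the growth hormone receptor Ghr (-0.87, 0.00332). The bile acid receptor Nr1h4 and Nr5a2 also fell (-0.67 and -0.63). Nr1i2, the pregnane X receptor, differed by 0.32 (adjusted p = 0.145), Nr1i3 by -0.45 (0.22) and Hnf4a by -0.20 (0.325), and these did not pass.

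Some genes that make or handle the transported substrates were lower. Of 19 measured, 7 fell, 1 rose and 11 did not pass, against 3.49% of all genes called lower and 4.74% higher. The bile acid enzymes Cyp7a1 (-4.01, adjusted p = 0.000255 by limma), Baat (-0.97, 0.00106) and Cyp27a1 (-0.80, 0.0088) fell. Hmox1, which starts the breakdown of haem to bilirubin, rose (1.09, adjusted p = 0.000978). A second gene of the list passed upward without WT replicate 1. Slc27a5 (-0.76), Hsd11b1 (-0.76) and Sult2a8 (-0.74) also fell. Hpgd, which degrades prostaglandins after uptake, fell by 0.70 on the log2 scale (adjusted p = 0.0392), and its call was not read under the alternatives. The other prostaglandin genes of the list, Ptges (-0.07), Ptgr1 (-0.06) and Ptgs2 (-0.02), did not pass.

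Slco1a1 belongs to the genes that are higher in male mouse liver, so others of that kind were set beside it. Of 9 measured, not counting Slco1a1, 5 fell and 4 did not pass, with a median of -0.61, against 3.49% of all genes called lower. The decreases of Cyp7b1 (-0.92), C6 (-0.85), C8b (-0.82) and Susd4 (-0.79) were smaller than the -1.78 of Slco1a1. The count was 2 without Cpt2KO replicate 3 and 3 without WT replicate 2. With each array omitted in turn, Cyp7b1 passed in 2 of 6 fits, C6 in 3, Susd4 in 5 and C8b in all 6. Of 7 genes higher in female liver, 1 fell, Cyp3a16 (-0.45, adjusted p = 0.0243 by limma), which passed in 1 of those 6 fits. The log2 fold changes of these 7 were all negative, from -0.89 to -0.17, with a median of -0.38.

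Markers of the liver's cell types were read on the same arrays, since in bulk tissue fewer cells of a type and less RNA per cell cannot be told apart. Of 8 hepatocyte markers, 3 fell and 5 did not pass, against 3.49% of all genes called lower. Log2 fold changes of the 8 ran from -0.76 (Fgb) to -0.09 (Tat) with a median of -0.29. Their summed signal on the log2 scale was 13.92 to 14.19 in Cpt2KO and 14.21 to 14.42 in WT livers. In 5 of these 8 every Cpt2KO array lay below every WT array, against 11.1% of all genes. Slc22a30, Slco1a4, Slco1a1 and Slco1b2 fell further than each of the 8. The listed transporters were chosen with their Cpt2KO-to-WT differences in view, so this is a description and no independent evidence. The changes of Slco2a1 and Slc22a7 lay within the range of the markers, and that of Slco2b1 (-0.07) just above it.

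Slco2a1 is known from vascular endothelium, and which cells gave its signal here was not tested. Sinusoidal endothelial markers were read as well. Of 11 measured, 1 rose, Lyve1 (0.92, adjusted p = 0.00183 by limma), and 10 did not pass, with a median of 0.03 and Kdr lowest at -0.20. By the same test 3.49% of all genes were called lower and 4.74% higher. The summed signal of the 11 endothelial markers was 10.55 to 10.71 in Cpt2KO and 10.42 to 10.55 in WT livers. Lyve1 is part of this sum, with means of 8.46 in Cpt2KO and 7.54 in WT livers. The 10 markers that did not pass had log2 fold changes from -0.20 to 0.24. Among 12 markers of Kupffer cells and other macrophages, Cd68 rose (2.32, adjusted p = 0.000358), Marco fell (-0.52, adjusted p = 0.0344) and 10 did not pass, with a median of -0.24. Marco passed in 1 of 6 fits with an array omitted. The summed signal was 10.28 to 10.64 in Cpt2KO and 9.98 to 10.41 in WT livers. This sum includes Cd68, with means of 8.92 in Cpt2KO and 6.61 in WT livers. Every other marker of the list had a negative log2 fold change. In 6 of the 12 every Cpt2KO array lay below every WT array, as in 11.1% of all genes. Markers of stellate cells (10 measured), bile duct cells (6), lymphocytes and neutrophils (9) and kidney tubule (7) had 0 calls by limma. Their extremes were -0.22 (Colec10) and 0.19 (Lrat), -0.39 (Sox9) and 0.07 (Cftr), -0.24 (Cd3g) and 0.16 (S100a8), and -0.12 (Umod) and 0.04 (Slc12a1), and Sox9 was the 1 gene of these lists at an unadjusted p under 0.05. The part of cell composition in the transporter decreases was not tested.

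**Figure D4:**
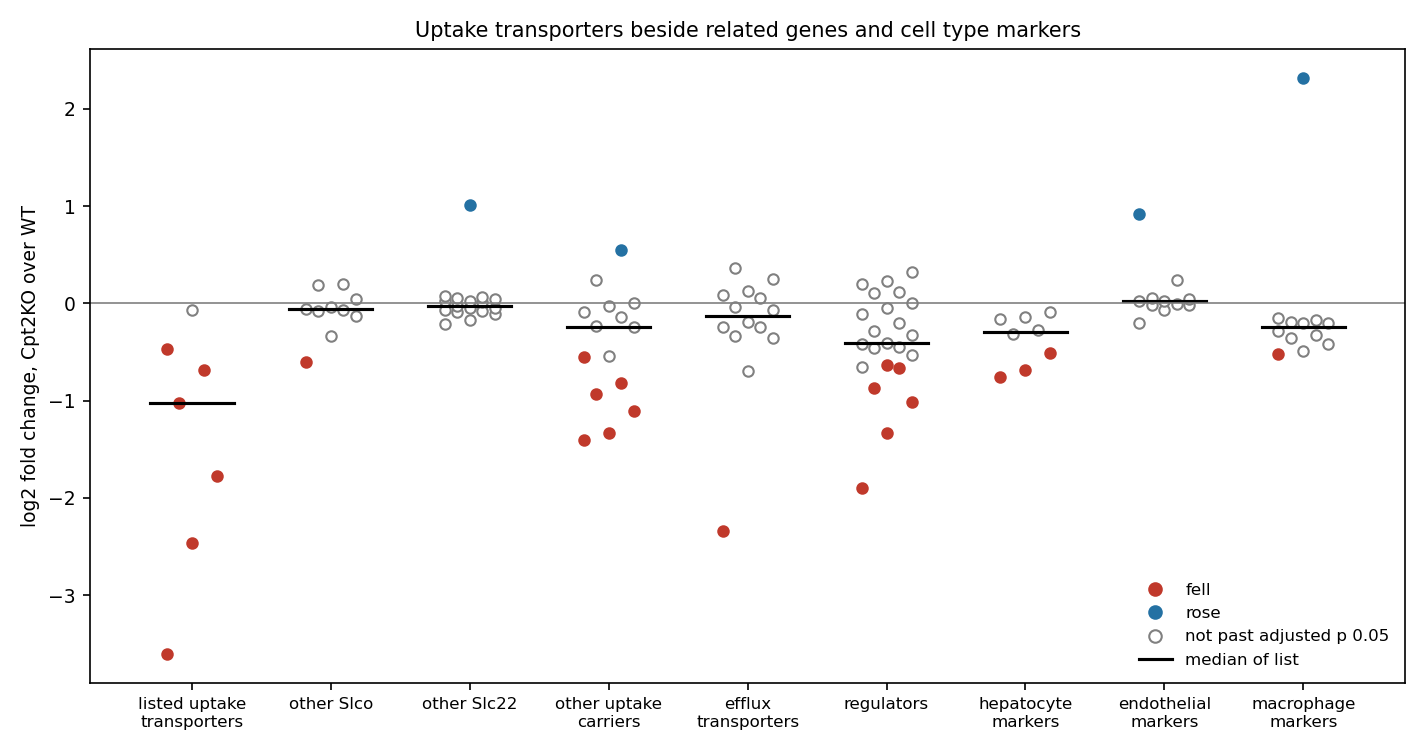
Log2 fold change of Cpt2KO over WT for the 7 measured uptake transporters, related gene lists and cell type markers, with 1 point per gene and a black line at each list's median; red points fell, blue points rose and open points did not pass adjusted p 0.05. The median is -1.02 for the uptake transporters, -0.06 and -0.03 for the other Slco and Slc22 genes and -0.29 for the hepatocyte markers.

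For each member that fell at least 2-fold, the 3 genes of most like pattern over the 6 arrays were looked up. Likeness was the root mean square difference between the 2 profiles after each was centred on its own mean. The genotype difference enters this measure, and all genes share the same 6 arrays. Slco1a1 was nearest to the kinase gene Camk1d (0.112), the kynurenine aminotransferase gene Kyat1 (0.122) and Gamt, of creatine synthesis (0.137). Slco1b2 was nearest to the paraoxonase gene Pon1 (0.110), the adenylate kinase gene Ak4 (0.112) and the noncoding AW549542 (0.112), whose Cpt2KO values were likewise lowest in replicate 1 and highest in replicate 3.

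Slco1a4 had less close partners, the sulfotransferase gene Sult1d1 (0.235), the glutathione transferase gene Gstt3 (0.274) and the potassium channel gene Kcnk5 (0.275). In Sult1d1 and Kcnk5, as in Slco1a4, Cpt2KO replicate 2 was lowest and replicate 3 highest. Slc22a30 was nearest to the long noncoding RNA gene C730036E19Rik on chromosome 1 (0.183), with 3.78, 3.77 and 4.02 in Cpt2KO livers against 6.96, 7.63 and 7.26 in WT livers. Serpina6, which encodes corticosteroid-binding globulin (0.251), and the serum amyloid gene Saa4 (0.289) followed.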

How the data were processed

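Liver RNA of 3 Cpt2KO and 3 WT mice was labelled with biotin and measured on Affymetrix arrays, 1 per mouse. The deposited table holds log2 values of 115050 rows, made by the authors with Partek and RMA and the build mm9, per the submitters' processing notes. Their versions and options are not given in the sources used. Values ran from 0.668 to 13.6. The platform annotation named 1 gene for 25469 rows, several for 2286 and none for 87295. The row with the highest mean over the 6 arrays stood for each of 20242 genes; all 6 columns were used.

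Cpt2KO was set against WT with limma 3.58.1 in R 4.3.3 (lmFit, eBayes, two-sided, no covariate, no filter), with Benjamini-Hochberg adjustment over 20242 genes and a threshold of 0.05. SE is that of the moderated test and SD that between arrays. The labels call the samples biological replicates. The fit was tested on simulated data.

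Members and lists were chosen with earlier results of these data known. Named were the members, the genes of both transporter blocks and the nearest profiles. In each related list up to 4 genes past 0.05 with the largest change were named, and in each marker list the extremes. Further genes were named after their values were seen (Slc10a1, Slc29a2, Pdzk1, Abcc2, Abcc3, Abcg5, Nr1h4, Nr5a2, Nr1i2, Nr1i3, Hnf4a, Hpgd, Slc27a5, Hsd11b1, Sult2a8, Ptges, Ptgr1, Ptgs2, Sox9). The 17 alternatives comprised 2 normalizations, 2 filters on dim genes, the mean of a gene's rows, every row tested, 3 other variance or weighting models, replicate number as a block, listed age and the omission of each array. Gene order, start-site windows and chromosomes came from RefSeq tables of GRCm38.p6. Windows were aligned with Biopython 1.88. Identity between the members' proteins was planned but not computed, as no protein sequences were used here. Replicate numbers were not treated as pairs.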

Additional observations from a re-analysis of the deposited data

How the results depend on the processing

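Of 118 values of the 7 members under the alternatives, 84 kept their direction and their side of the threshold, 31 kept the direction but lost the call and 3 turned. Slco2b1 turned to 0.035 after quantile normalization, to 0.066 with listed age and to 0.021 without Cpt2KO replicate 2, and ran from -0.16 to 0.021 with an array left out. With an array left out, Tat ran from -0.21 to 0.029, turning without Cpt2KO replicate 1; over all alternatives its lowest value was -0.30, after quantile normalization. The 6 members called lower became 3 with every row tested, 3 with unmoderated statistics and 1, Slc22a30, with listed age; leaving out an array gave 3 to 5. The 1667 genes called in all became 367, 652 and 83 in these settings, and 1036 to 1305 with an array left out. Testing every row raises the number of tests and also changes the SE, which was 0.16 for Slco1a1 against 0.13 in the report. Unmoderated statistics rest on 4 residual degrees of freedom. The cause of the lost calls was not tested. The replicate block left 5 members lower (Slc22a7 lost, adjusted p = 0.0582) and 1384 genes in all. Deviations of same-numbered arrays correlated at 0.07, 0.18 and -0.08, so the numbers were not treated as pairs. Counts in the related lists moved too. With every row tested, unmoderated statistics and listed age, decreases numbered 0, 2 and 1 among the solute carriers and partners (6 in the report). In the same settings they numbered 0, 1 and 0 among the regulators (6 in the report). The substrate genes had 1, 3 and 0 (7 in the report) and the male genes 0, 1 and 0 (5 in the report). Elsewhere the solute carriers and partners had 5 to 7. The efflux count (1) was 3 above the median level. Dim rows, such as those of Slc22a7, limit what these arrays can show.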
